A study of Mus musculus with 4 samples.

Results

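Protein tyrosine phosphatases remove phosphate from tyrosine residues and so oppose the tyrosine kinases of antigen and cytokine receptors. The non-receptor enzymes (Ptpn genes) work inside the cell, and the receptor enzymes (Ptpr genes) span the membrane. Dual specificity phosphatases (Dusp genes) act on phosphotyrosine together with phosphoserine or phosphothreonine, and the MAP kinase phosphatases among them switch off ERK, JNK and p38. In T cells these enzymes set the threshold of T cell receptor signalling, act on JAK and STAT proteins downstream of cytokine receptors, and end MAP kinase signalling.

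The genes described here are the protein-coding genes on chromosomes 1 to 19 of the NCBI RefSeq GRCm38 gene table whose symbol is Ptpn with a number, Ptpr with 1 or 2 letters, or Dusp with a number. They number 57 of 20665 coding genes on these chromosomes, with 17 Ptpn, 18 Ptpr and 22 Dusp genes. Dusp9 and Dusp21 lie on chromosome X, and Ptprv is a transcribed pseudogene in the table, so these 3 were left out. The naming rule itself uses no measured value. The genes were also sorted by what is known of them, into 24 genes with a role in T cell signalling, 19 genes known mainly from neurons, endothelium, gut, inner ear, muscle or testis, and 14 genes in neither list.

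KAP1, the product of Trim28, represses transcription as a cofactor of the DNA-binding KRAB zinc finger proteins. It was mapped by chromatin immunoprecipitation and sequencing with an anti-KAP1 antibody in regulatory T cells, sorted from the spleen of C57BL/6 mice and expanded in culture for 2 weeks, without further treatment given in the labels. Of the 2 KAP1 samples, replicate 1 has 8862 peak summits and replicate 2 has 79515 (8.97 times as many). The 2 input samples, made without antibody, were not analysed here. No label ties the replicates to separate mice or cultures, and the read depth is unknown, so differences between the lists may be technical. A summit list holds positions and not transcript levels, so the identity of the cells cannot be checked from marker genes, and a summit says nothing of whether a gene was expressed.

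Each summit carries the authors' peak calling score (−log10, with p-value or q-value not stated). The score was used to describe and rank summits, to choose some genes for mention, and to filter summits in some alternative counts. Ranks were taken within each list. Summits of replicate 1 that had a summit of replicate 2 no more than 200 bp away are called shared, and 7720 were found in the genome. Each was placed at a gene end (within 1 kb of the lowest or highest coordinate of the gene), in the gene body (the rest of the gene), or outside the gene up to 20 kb away. Replicate 1 has 650 distinct scores, and 1188 of its summits have the most common, 5.1, so that tied scores are frequent. All counts below are descriptions without a test, since the 2 samples belong to 1 group.

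A larger share of these phosphatase genes than of coding genes in general held a shared KAP1 summit in the body, and about the same share had one at an end. Pooled over all body lengths, shared summits were sparser in these genes, with 0.237 per 100 kb of body, against 0.355 in all coding genes. By gene length, they were denser at 10 to 30 kb (1.71 against 0.71) and at 30 to 100 kb (0.943 against 0.538). At 100 kb or more the pooled density was lower (0.0968 against 0.2), in a class that holds Ptprd (2270.5 kb) and Ptprt (1139.2 kb). Under 10 kb it was 0 against 0.816, but the 7 bodies there are too short in all for a 0 to show a difference. Of the 57 genes, 5 had a shared summit at an end (8.77%), against 8.94% of all coding genes. In the body, 16 of the 56 genes long enough to have one held a shared summit (28.6%), against 12.9% of all coding genes. Within 20 kb, 25 of 57 genes had a shared summit (43.9%), against 34.3%. With all replicate 1 summits, shared or not, the counts were 7 at ends (12.3%), 17 in bodies (30.4%) and 26 within 20 kb (45.6%). The shares of all coding genes were 9.84%, 13.8% and 35.9%. With all replicate 2 summits, shared or not, they were 12 (21.1%), 42 (75.0%) and 55 (96.5%), against 23.2%, 56.4% and 84.3%. The median length was 55.4 kb for these genes, against 17.5 kb for all coding genes. By length, a shared body summit lay in 0 of 7 of these genes under 10 kb, against 2.81% of all coding genes of that length. It lay in 4 of 16 genes of 10 to 30 kb (25.0%), against 9.92%, in 7 of 16 genes of 30 to 100 kb (43.8%), against 20.4%, and in 5 of 17 genes of 100 kb or more (29.4%), against 27.2%. The share in the longest genes was thus near that of all coding genes.

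In all, 42 shared summits lay within 20 kb of the 25 genes, with 5 at ends, 20 in bodies and 17 outside. None of the 42 was counted for more than 1 gene. The median distance between the partners of both lists was 8.5 bp, and the largest was 107 bp. The mean of the 2 score percentiles had a median of 71.3 over these summits, against 66.0 over the shared summits within 20 kb of any coding gene. A nearer end of another coding gene lay within 1 kb of 3 of the 42 summits, and 7 lay inside another coding gene.

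**Figure D1:**
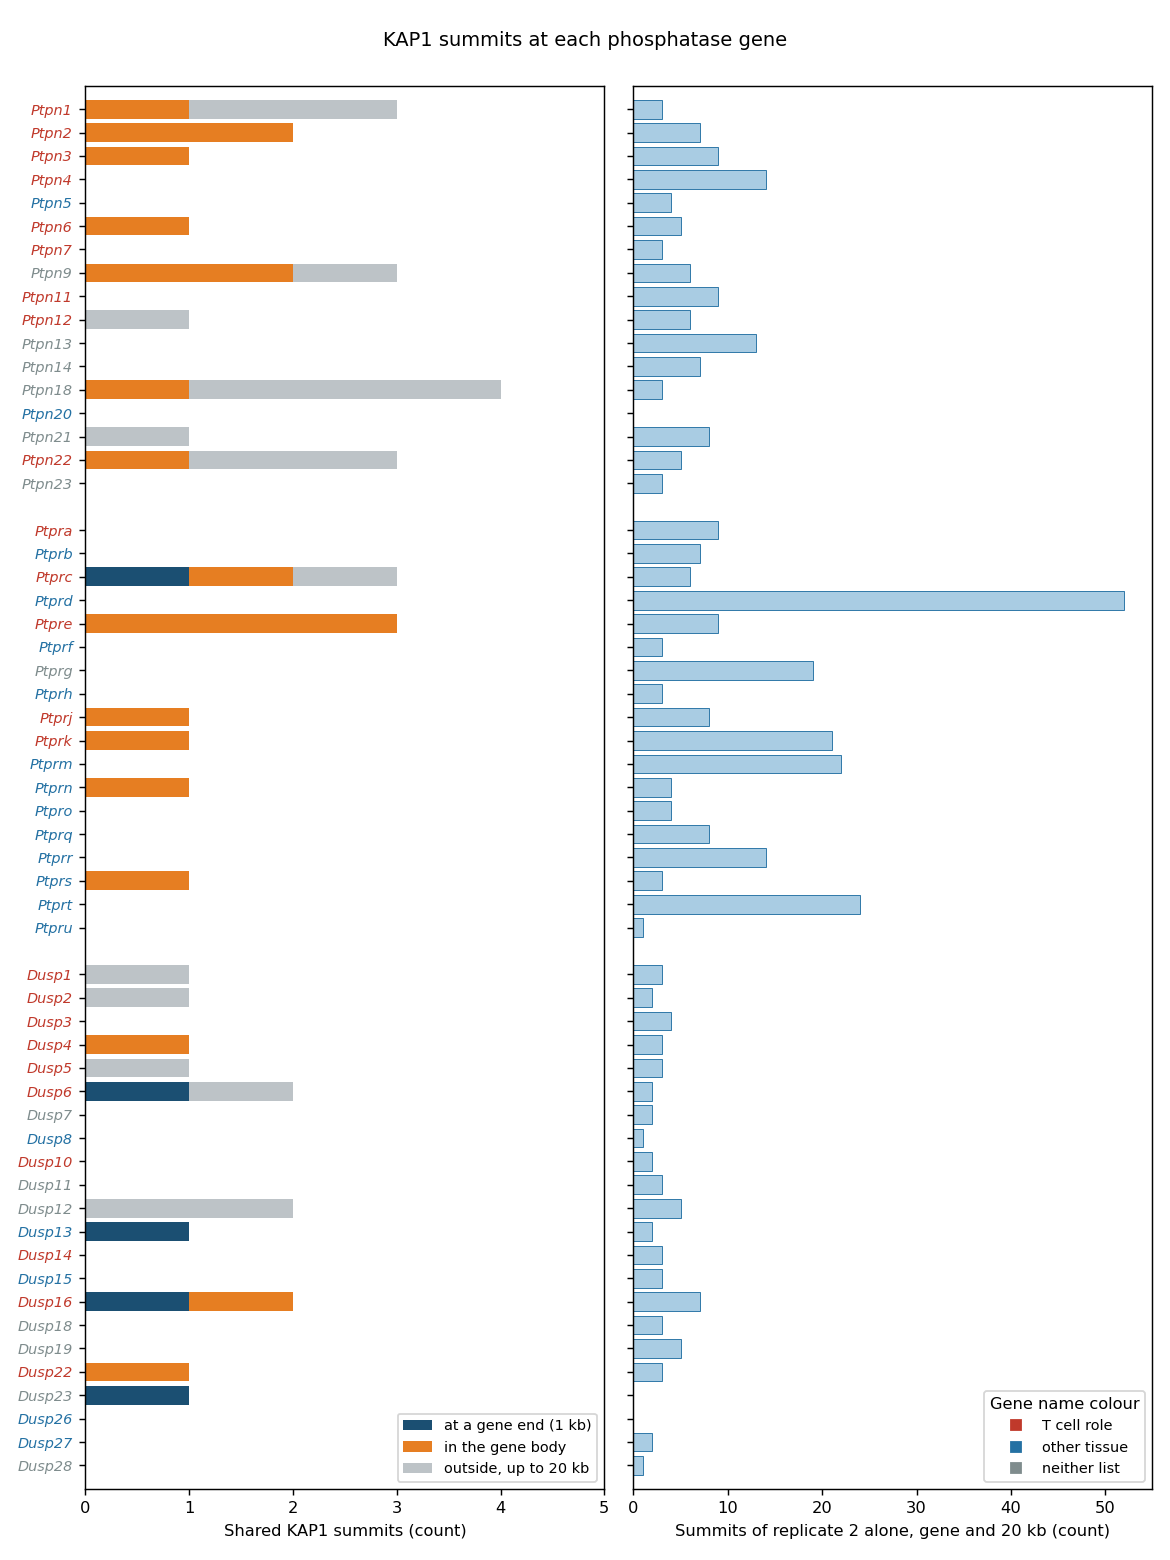
Number of KAP1 summits at each of the 57 genes. Left, shared summits at an end (dark blue), in the body (orange) and outside up to 20 kb (grey). Right, summits of replicate 2 with no replicate 1 partner, in the gene and 20 kb around it. Ptpn18 has the most shared summits, 4, while Ptprd has 52 summits of replicate 2 alone and none that is shared.

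The 5 genes with a shared end summit were Ptprc, Dusp6, Dusp16, Dusp13 and Dusp23, and in each of them the summit was nearer to the start than to the other end. None of the 17 Ptpn genes had a shared end summit, against 8.94% of all coding genes, and 17 genes are too few for a 0 to show a lower share. The table of promoters lists at least 1 start for 48 of the 57 genes, and it showed a further gene, Ptpn22, whose shared summit lay next to a listed start although the gene begins earlier in the gene table. Within 1 kb of a listed start, 6 of 48 genes had a shared summit (12.5%), against 8.57% of all coding genes with a listed start. This comparison with listed starts was added after the data were seen. Of the 65 windows of 250 bases before a listed start, 3 held a shared summit (4.62%), against 2.55% of all coding promoters.

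Ptprc encodes CD45, the receptor phosphatase that removes the inhibitory phosphate from the kinase Lck and is found on all nucleated blood cells. Its end summit lay at position 138175484 of chromosome 1 (mm10), with a score of 10.3 in replicate 1 and 19.8 in replicate 2. That is 272 bp inside the gene as the table draws it and 179 bp before a listed start. A body summit at position 138136532 had scores of 13.4 and 16.1 in replicates 1 and 2, at 39224 bp from the start of the gene. The summit outside the gene, 16117 bp before its start, had scores of 8.72 and 16.8. All of these ranked above the median of both lists, with percentiles from 62.8 to 79.7 in replicate 1 and from 91.4 to 95.1 in replicate 2.

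Dusp6 encodes a cytoplasmic phosphatase of ERK. Its end summit, at position 99263056 of chromosome 10 and 175 bp before the start, was weak in both lists, scoring 5.1 in replicate 1 and 6.88 in replicate 2. A second shared summit lay 1142 bp past its 3′ end, with scores of 8.34 and 10.3. Dusp16 encodes a phosphatase of JNK and p38, and its summits were stronger. The summit 769 bp inside its start, at position 134806294 of chromosome 6, had scores of 16.8 in replicate 1 and 31.2 in replicate 2. The summit in its body, at position 134791764, had scores of 13.3 and 24.9 and lay 864 bp past the listed start. Dusp23 encodes a small atypical enzyme, and its summit lay 221 bp before the start, at position 172633195 of chromosome 1, with scores of 8.34 and 13.2. Dusp13 encodes enzymes of testis and skeletal muscle. Its summit, 398 bp inside the start at position 21748253 of chromosome 14, ranked at percentiles 82.6 in replicate 1 and 98.6 in replicate 2, with scores of 15.4 and 35.8.

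The 250 bases before the start are shown for Ptprc, Dusp6 and Dusp23, the 3 genes in which they hold a shared summit. The sequences are RefSeq's, on GRCm38.p6, which has the chromosome coordinates of mm10, and run 5′ to 3′ on the strand of the gene. They cover chr1:138175306-138175555 (minus strand), chr10:99262981-99263230 (plus strand) and chr1:172632975-172633224 (minus strand). Capitals mark the replicate 1 summit base with 5 bases on either side.
Ptprc: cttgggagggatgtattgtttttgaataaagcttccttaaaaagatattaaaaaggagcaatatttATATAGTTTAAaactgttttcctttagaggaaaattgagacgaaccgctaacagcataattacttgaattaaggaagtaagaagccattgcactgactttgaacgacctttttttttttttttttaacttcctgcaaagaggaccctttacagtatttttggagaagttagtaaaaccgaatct
Dusp6: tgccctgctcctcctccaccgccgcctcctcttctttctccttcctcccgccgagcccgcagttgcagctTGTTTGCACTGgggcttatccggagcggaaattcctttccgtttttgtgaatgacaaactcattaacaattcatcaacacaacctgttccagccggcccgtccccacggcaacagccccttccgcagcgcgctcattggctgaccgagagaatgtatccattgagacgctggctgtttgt
Dusp23: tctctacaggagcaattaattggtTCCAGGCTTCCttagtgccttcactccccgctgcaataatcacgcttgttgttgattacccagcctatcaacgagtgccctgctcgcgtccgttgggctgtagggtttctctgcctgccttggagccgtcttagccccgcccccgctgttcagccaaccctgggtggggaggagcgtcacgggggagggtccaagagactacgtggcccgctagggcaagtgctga

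These windows differ in base composition. The G and C share was 31.6% in the Ptprc window, 56.4% in the Dusp6 window and 59.2% in the Dusp23 window, against medians of 60.4% over the 65 windows of these phosphatase genes and 56.0% over all 20085 coding promoters. A total of 7 motifs were searched on both strands: CCGGAAG (ETS), TGACGTCA (CRE), GGGCGG (GC box), TGTGGT (Runx), TGAGTCA (AP-1) and, by name alone, the palindromic NRF1 site and the NF-kappaB site. The Ptprc and Dusp6 windows held none of them, and the Dusp23 window held a GC box. The window before the Ptpn22 start that its summit lies next to held 2 Runx matches, as the letters ACCACA of the other strand. The Runx letters occurred in 6 of the 65 windows (9.23%) and in 12.2% of all coding promoters. The GC box occurred in 34 (52.3%), against 43.4%, and the CRE letters in 4 (6.15%), against 1.98%. The ETS letters occurred in 4 (6.15%), against 9.21%, the AP-1 letters in 3 (4.62%), against 4.09%, and the NRF1 site in 1 (1.54%), against 1.08%. The NF-kappaB site occurred in 0 of the 65 windows and in 0.0996% of all coding promoters. A match is a run of letters and not a measured binding site.

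Among the non-receptor phosphatases, 9 of 17 genes had a shared summit within 20 kb (52.9%), against 34.3% of all coding genes, and 7 had it in the body (41.2%), against 12.9%. Their median length was 59.1 kb, and among coding genes of 30 to 100 kb the body share was 20.4%. Ptpn2 encodes the T cell protein tyrosine phosphatase, which acts on Lck, JAK and STAT proteins. Its body held 2 shared summits on chromosome 18. The summit at position 67714852 had scores of 37.2 in replicate 1 and 66.9 in replicate 2, at percentiles 97.2 and 99.7. The summit at position 67688534 had scores of 10.7 and 15.5. With a mean percentile of 98.4, the first of these stood, with the Ptprj summit described below, at the top of the 42. A replicate 1 summit 551 bp outside the higher end of Ptpn2 had a score of 1.48 and no replicate 2 partner.

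Ptpn22 encodes a lymphoid phosphatase that, with the kinase Csk, restrains Lck and Zap70. Its body summit at position 103860303 of chromosome 3 had scores of 13.2 in replicate 1 and 12.2 in replicate 2. It lay 3728 bp inside the gene as the table draws it and 26 bp past a listed start. A pair of further shared summits lay 2051 and 5282 bp past the 3′ end of Ptpn22, inside the neighbouring gene Rsbn1, and the nearer of them was 213 bp from an end of Rsbn1. Their scores were 5.1 and 8.34 in replicate 1, and 4.06 and 10.1 in replicate 2.

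Ptpn6 encodes a phosphatase with SH2 domains that inhibitory receptors recruit. It had 1 shared summit, in the body at position 124723082 of chromosome 6 and 2375 bp from its 3′ end, scoring 8.4 in replicate 1 and 18.8 in replicate 2. Ptpn11 encodes the related enzyme that promotes signalling through Ras. It had no shared summit within 20 kb but 9 summits of replicate 2 alone, at percentiles from 16.5 to 78.4, and the nearest of these to the start lay 456 bp before it, with a score of 9.06.

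Some further Ptpn genes were chosen for mention after their values were seen. Ptpn3, whose product has FERM and PDZ domains, had a strong body summit scoring 22.7 in replicate 1 and 44.6 in replicate 2. Its relative Ptpn4 had none that was shared and 14 of replicate 2 alone. Ptpn1, the gene of PTP1B, which acts on the insulin receptor and on JAK2, had shared summits 7048 and 5851 bp before its start, with scores of 14.4 and 8.09 in replicate 1 and of 10.1 and 25.0 in replicate 2. Its other shared summit, in the body, had scores of 5.1 and 7.49. Ptpn7, which encodes a phosphatase of ERK and p38 in blood cells, had no shared summit. A replicate 1 summit lay 110 bp before its listed start with a score of 5.1, and the nearest replicate 2 summit was 9941 bp away.

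Ptpn18 had 4 shared summits within 20 kb, the most of the 57 genes at these settings, and 1 with replicate 2 reduced to its 8862 highest scores. Its product binds Csk. Only the summit in its body, at position 34464387 of chromosome 1, lay in the gene. It had scores of 10.3 in replicate 1 and 34.5 in replicate 2. A pair of the others lay inside Imp4, 19864 and 17533 bp before the start of Ptpn18, and the more distant of them was 36 bp from an end of Imp4. Ptpn9 encodes a phosphatase of secretory vesicles. It had 2 shared body summits near its start, at 2503 bp with scores of 9.86 and 23.6 and at 10278 bp with scores of 5.1 and 5.51. It had another inside the neighbouring gene Snupn.

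Among the receptor phosphatases, 6 of 18 genes had a shared summit within 20 kb (33.3%), near the 34.3% of all coding genes, and each of the 6 held it in the body. The body share of 33.3% was also not far from the 27.2% of all coding genes of 100 kb or more. Apart from Ptprc, these were Ptpre, Ptprj, Ptprk, Ptprn and Ptprs. Ptpre encodes a receptor enzyme of the short type, which is known to act on Src family kinases. Its body held 3 shared summits on chromosome 7. With a shared distance of 50 bp the count was 1, as it was with scores at or above the median of each list or with replicate 2 reduced to its 8862 highest scores. The strongest, at position 135652280, had scores of 17.6 in replicate 1 and 50.9 in replicate 2. The summits at positions 135588666 and 135624957 had the same replicate 1 score, 6.16, and replicate 2 scores of 8.09 and 8.88. The related gene Ptpra, which activates Src family kinases by removing their inhibitory phosphate, had no shared summit within 20 kb and 9 of replicate 2 alone, the strongest of them at percentile 97.8.

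Ptprj, chosen for mention after its values were seen, encodes CD148, a receptor phosphatase of blood cells. Its only shared summit, at position 90487679 of chromosome 2 and 93015 bp from the start of the gene, had scores of 37.2 in replicate 1 and 62.6 in replicate 2, at percentiles 97.2 and 99.7. Ptprk, the MAM-type adhesion receptor needed for CD4 T cell development in the rat, had 1 shared summit in 522.6 kb, with scores of 5.1 and 7.38. The Ptprn summit (scores of 7.25 and 8.11) and the Ptprs summit (5.79 and 11.2) were weak to moderate. Ptprn encodes a protein of secretory granules, and Ptprs a receptor of the LAR type that organizes synapses.

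Several of the long receptor genes had many summits in replicate 2 and none that was shared. Ptprd, a LAR-type gene of neurons, is 2270.5 kb long and held 52 summits of replicate 2 in its body. Ptprt had 24 within 20 kb, Ptprm had 22, Ptprg had 19 and Ptprr had 14, again with no replicate 1 summit. The score percentiles of these summits had medians of 46.4 for Ptprd, 48.3 for Ptprt, 46.4 for Ptprm, 42.0 for Ptprg and 70.5 for Ptprr, against 46.4 for the summits of replicate 2 alone within 20 kb of any coding gene. Per 100 kb of body, Ptprd had 2.29 replicate 2 summits, Ptprt 2.11, Ptprm 2.92, Ptprg 2.77 and Ptprr 4.71, against 3.27 for all coding genes of 100 kb or more.

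**Figure D2:**
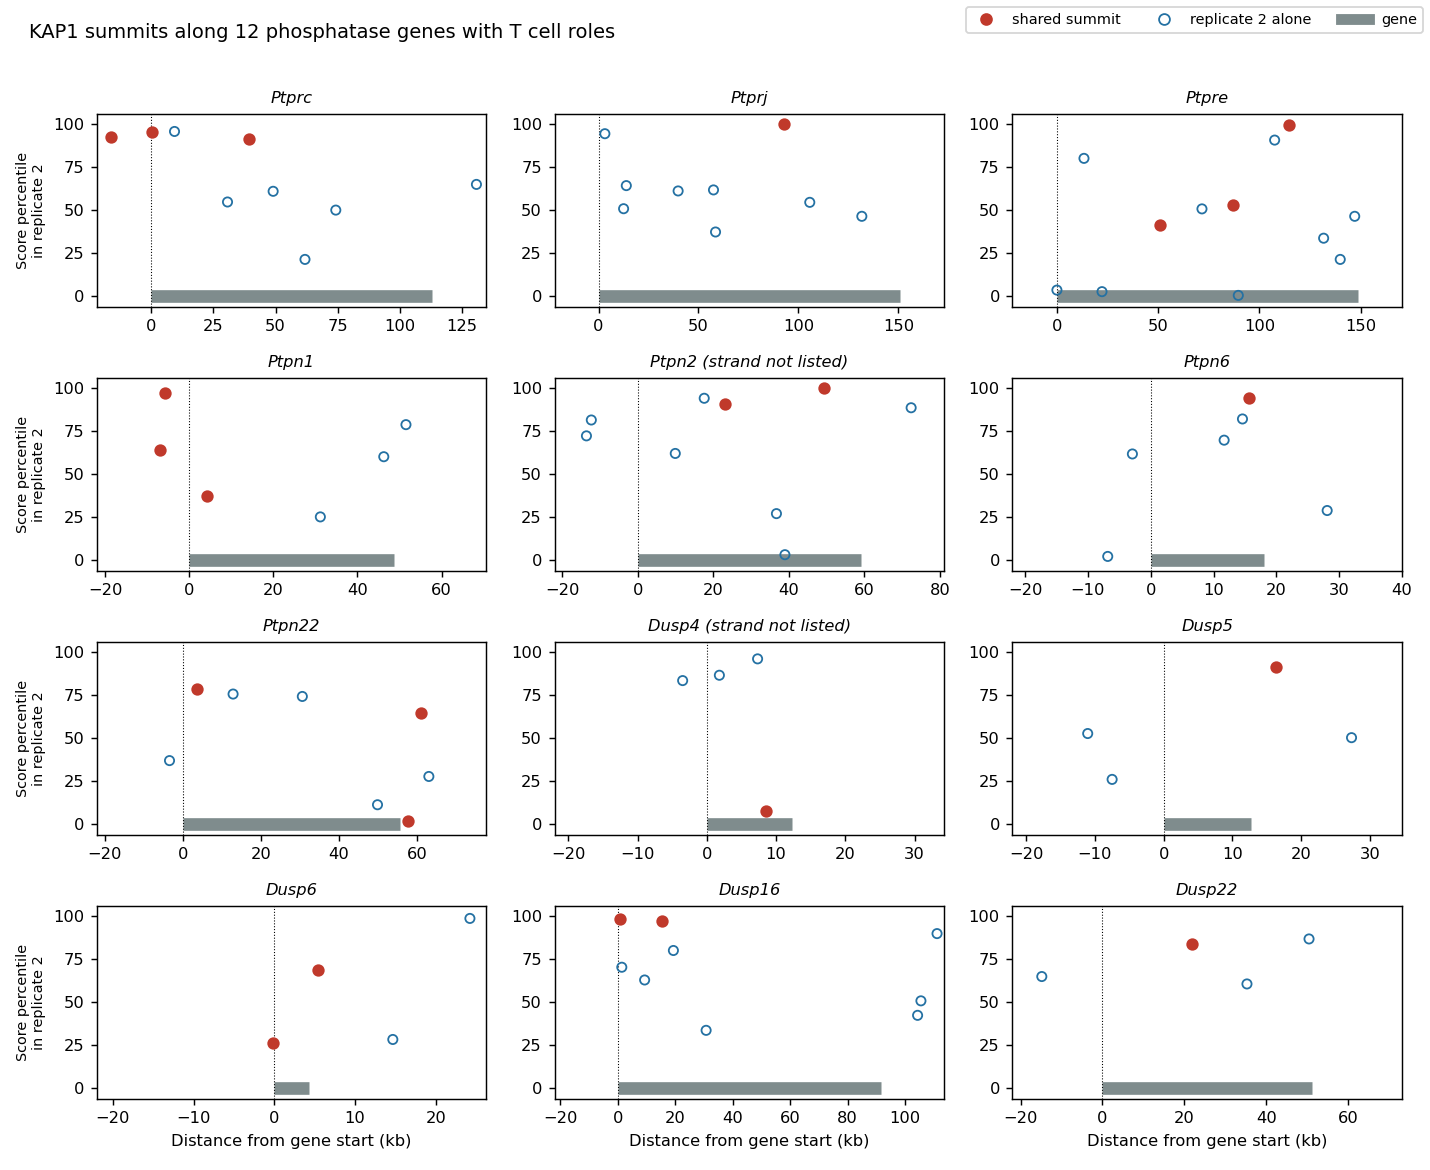
KAP1 summits along 12 of the 17 T cell role genes with a shared summit within 20 kb. The 7 T cell role genes without one are not shown, nor are summits of replicate 1 alone. The horizontal axis is the distance from the start of the gene in the direction of transcription (kb), or from its lower coordinate where the strand is not listed. The vertical axis is the percentile of the score in replicate 2, filled points are shared summits, open points are summits of replicate 2 alone, and the grey bar is the gene. The filled points of Ptprj, Ptpn2 and Ptpre reach percentiles of 99.7, 99.7 and 99.4, while that of Dusp4 is at 7.75.

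Of the 22 dual specificity genes, 10 had a shared summit within 20 kb (45.5%), against 34.3% of all coding genes. At an end they were 4 of 22 (18.2%), against 8.94%, and in the body 3 of 21 (14.3%), near the 12.9% of all coding genes. The MAP kinase phosphatases had 6 of 9 genes with a shared summit within 20 kb (66.7%), and the atypical enzymes had 4 of 13 (30.8%). Most of these genes are short, with a median length of 12.5 kb, and among coding genes of 10 to 30 kb the share with a shared summit within 20 kb was 37.7%.

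The summits of Dusp1, Dusp2, Dusp4, Dusp5 and Dusp10, which encode nuclear or inducible MAP kinase phosphatases, lay mostly outside the genes. Dusp1 had a shared summit 15568 bp past its 3′ end, scoring 8.34 in replicate 1 and 11.2 in replicate 2. Dusp2, the nuclear phosphatase first found in activated lymphocytes, had a shared summit 18641 bp before its start, whose score was the lowest of replicate 1 (1.32) although it was 17.1 in replicate 2. Dusp4 held a body summit with scores of 5.1 and 5.31. Dusp5, a nuclear phosphatase of ERK, had a stronger summit 3626 bp past its 3′ end at position 53545435 of chromosome 19, with scores of 15.9 and 16.0, and in its body a replicate 1 summit with a score of 2.31 and no partner. Dusp10, a phosphatase of JNK and p38, had no shared summit within 20 kb and 2 of replicate 2 alone. Thus 1 of these 5 genes, Dusp4, held a shared summit in the gene. Of all 9 MAP kinase phosphatases, which include Dusp6 and Dusp16, 3 had a shared summit at an end or in the body (33.3%). The share of all coding genes was 18.7%.

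Among the atypical enzymes, Dusp22, whose product acts on Lck, had a body summit at position 30681923 of chromosome 13, scoring 10.7 in replicate 1 and 13.3 in replicate 2. Dusp12 had 2 shared summits outside the gene that were strong in replicate 2 (31.9 and 40.1) and weak in replicate 1 (3.23 and 5.99). The one at 3.23 lay inside the neighbouring gene Atf6, 701 bp from an end of it. Dusp22 and Dusp12 were chosen for mention after their values were seen.

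When the genes were set apart by role, those of T cell signalling had shared summits more often than those known mainly from other tissues. At an end or in the body, a shared summit was found in 13 of the 24 T cell role genes (54.2%), in 3 of the 19 other tissue genes (15.8%) and in 18.7% of all coding genes. With all replicate 1 summits, shared or not, these were 15 of 24, 3 of 19 and 19.9%. With all replicate 2 summits, shared or not, they were 21 of 24, 14 of 19 and 59.5%. Within 20 kb, 17 of the 24 T cell role genes had a shared summit (70.8%), against 3 of 19 (15.8%) in the other tissue list and 34.3% of all coding genes. The 3 other tissue genes were Dusp13, Ptprn and Ptprs. The 7 T cell role genes without a shared summit within 20 kb were Ptpn4, Ptpn7, Ptpn11, Ptpra, Dusp3, Dusp10 and Dusp14, and all 7 had summits of replicate 2 alone. The lists were drawn up with earlier results of these data known, among them the Ptprc summit, so their counts are no independent evidence.

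The median gene length was 53.4 kb for the T cell role genes and 64.1 kb for the other tissue genes. Among genes of 100 kb or more, 5 of 7 T cell role genes held a shared body summit, against 0 of 7 other tissue genes and 27.2% of all coding genes of that length. Among genes of 30 to 100 kb, the counts were 5 of 8 and 1 of 6, against 20.4%. Among genes of 10 to 30 kb they were 2 of 6 and 1 of 5, against 9.92%. No gene under 10 kb in either list (3 and 1) held a shared body summit, against 2.81% of all coding genes. The lists are short, so that a single gene moves a share widely.

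**Figure D3:**
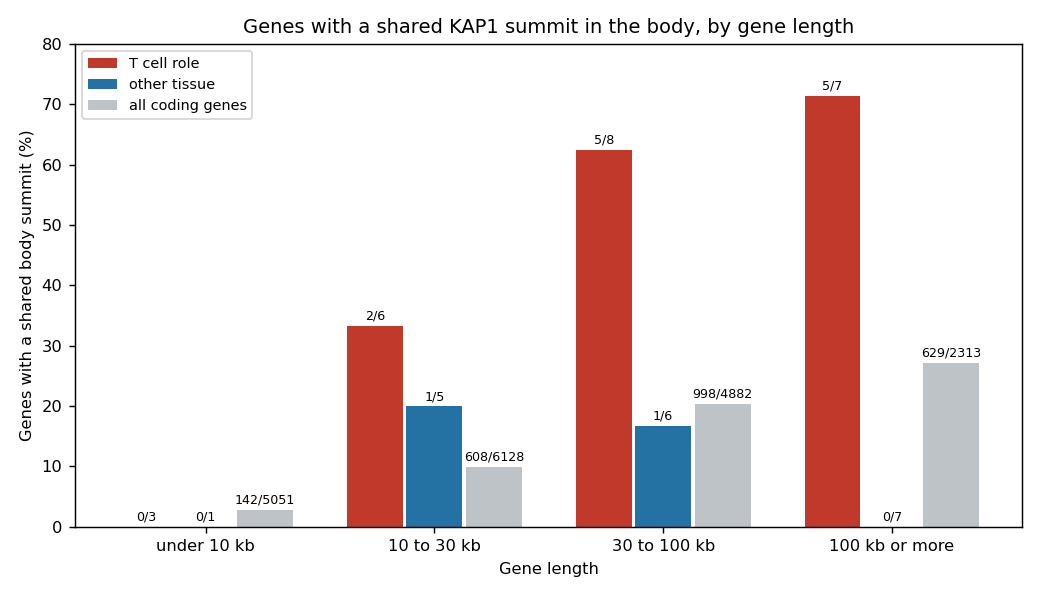
Share of genes with a shared KAP1 summit in the body (%), by gene length, for the T cell role genes (red), the other tissue genes (blue) and all coding genes on chromosomes 1 to 19 (grey). The fractions over the bars are genes with a summit over genes. At 100 kb or more, the bars stand at 71.4%, 0% and 27.2%.

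The same contrast stood in the density of summits. The bodies of the T cell role genes held 0.788 shared summits per 100 kb, those of the other tissue genes 0.0375, and those of all coding genes 0.355. For all replicate 2 summits, the densities were 5.88, 2.53 and 3.88 per 100 kb. The other tissue list is dominated by Ptprd and Ptprt, which make up most of its length. Among genes of 100 kb or more, which still include these 2, the T cell role genes had 5.60 replicate 2 summits per 100 kb, the other tissue genes 2.52 and all coding genes 3.27. The median over single genes was 6.1 for the T cell role genes, 2.11 for the other tissue genes and 2.41 for all coding genes. At 100 kb or more these medians were 6.16, 2.92 and 3.28, so the other tissue genes were nearer to all coding genes by this measure.

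The replicate 2 summits inside the genes were also unlike in how often replicate 1 had a partner for them. This was so for 17 of 115 in the T cell role genes (14.8%), for 3 of 136 in the other tissue genes (2.21%) and for 10.5% in all coding genes. In genes of 100 kb or more, the counts were 8 of 77 (10.4%) and 0 of 123, against 6.54% in all coding genes of that length. A count of 0 in 123 allows a share of up to 2.44%, a limit that covers counting error only and takes each summit as independent. The 123 lie in 7 genes, with 52 in Ptprd and 24 in Ptprt, so the limit is too narrow. Of the families, the Ptpn genes had partners for 9 of 78 (11.5%), the Ptpr genes for 9 of 206 (4.37%) and the Dusp genes for 5 of 22 (22.7%).

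**Figure D4:**
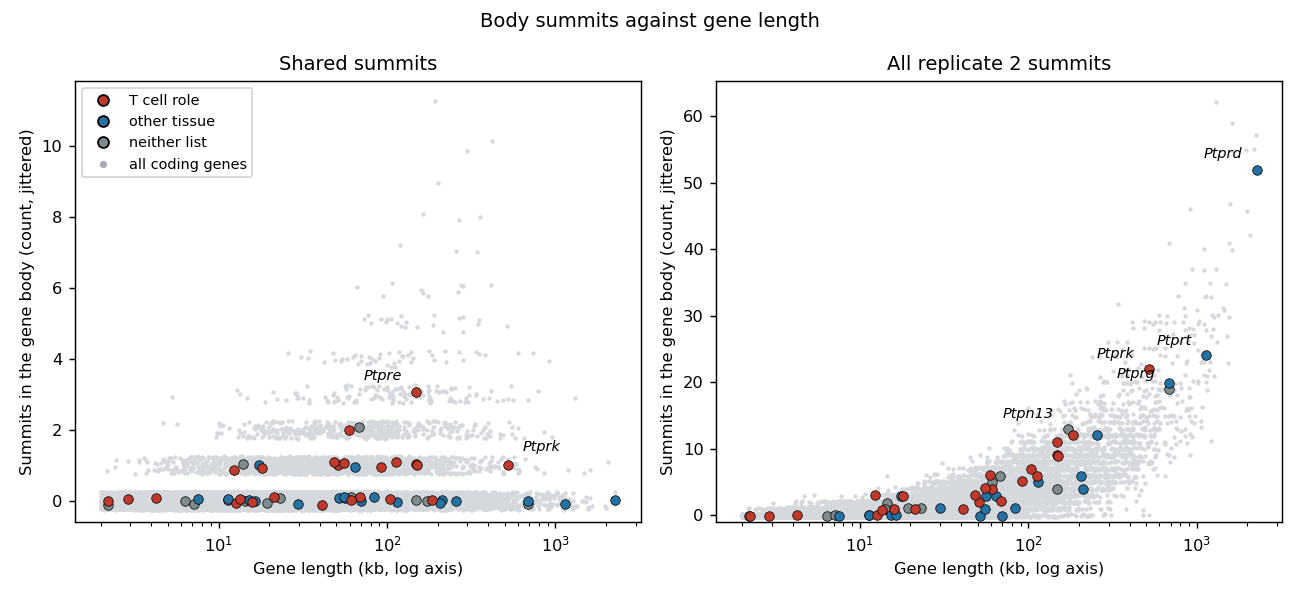
Summits in the gene body against gene length (log axis) for shared summits (left) and all replicate 2 summits (right). Large points are the phosphatase genes, coloured by list, and small grey points are all coding genes; counts are jittered vertically for display. The replicate 2 counts rise with length up to 52 in Ptprd, while Ptpre has 3 shared summits at the shared distance of 200 bp.

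The place of the shared summits along these genes was close to that in all coding genes. The strand is listed for 20 of the 23 shared summits that lay inside a gene. Of these, 13 were in the part of the gene nearer to the start (65.0%), against 65.9% of the 3349 shared summits in all coding genes with a listed strand. In the first 10% of the length there were 6 of the 20, against 27.1%. The median place was 34.5% of the way along, against 31.8%. Outside the genes, 9 shared summits were upstream of the start and 7 past the 3′ end, with 1 at a gene of unlisted strand.

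**Figure D5:**
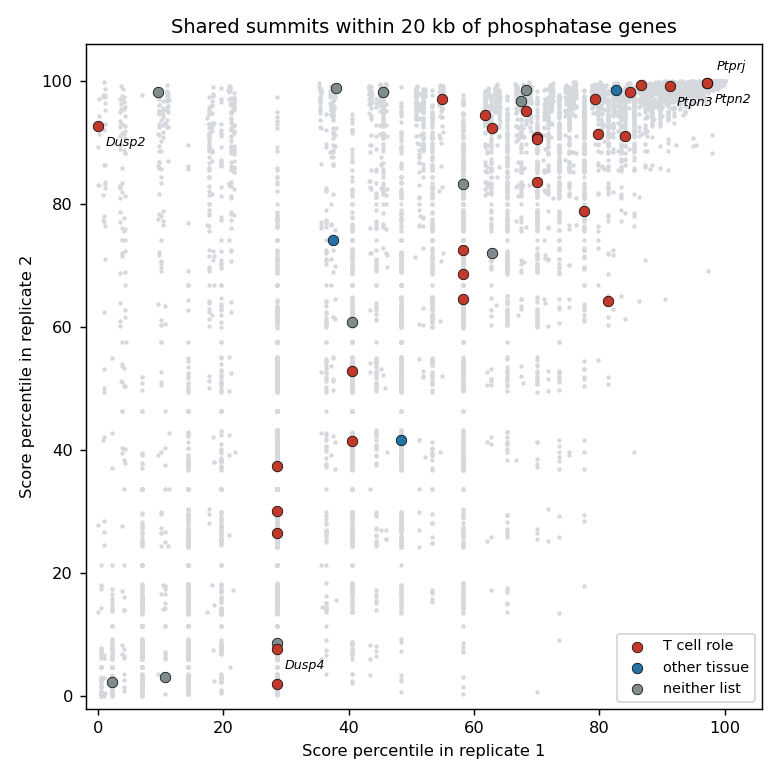
Percentiles of the authors' scores for shared summits, replicate 1 against replicate 2. Small grey points are all 7720 shared summits and large points are the 42 within 20 kb of phosphatase genes, coloured by list. The summits of Ptpn2 and Ptprj stand at 97.2 and 99.7, and the Dusp2 summit is at 0.0282 in replicate 1 and 92.7 in replicate 2.

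The scores of the 42 summits covered nearly the whole range of both lists. In 30 of them the mean percentile was 50 or more. The median of the mean percentile was 77.2 for the 28 summits of the T cell role genes, 55.8 for the 3 of the other tissue genes and 67.4 for the 11 of the genes in neither list, against 66.0 for all coding genes. The weakest of all was a Ptpn18 summit inside Imp4, at 2.33.

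Genes that work with or against these phosphatases were counted in the same way, in 3 lists. Of 28 kinases, adaptors and receptors of T cell and cytokine signalling, 7 had a shared end summit (25.0%, against 8.94% of all coding genes), 13 of 27 had a body summit (48.1%, against 12.9%) and 25 had a summit within 20 kb (89.3%, against 34.3%). The median length in this list was 43.9 kb, and among coding genes of 30 to 100 kb the body share was 20.4%. Its 54 shared summits within 20 kb were weaker than usual, with a median mean percentile of 51.7, against 66.0 for all coding genes. The end summits with the highest mean percentiles in this list were those of Ptprcap (54.0), Jak1 (51.7) and Tyk2 (46.8). Ptprcap encodes a protein that associates with CD45, and its summit had scores of 3.25 in replicate 1 and 33.2 in replicate 2. That summit lay inside the gene, 974 bp from the nearer end and 1056 bp from an end of Rps6kb2. The cytokine receptor kinase gene Jak1 (7.25 and 9.24) and the related Tyk2 (7.64 and 7.9) followed. Of 27 MAP kinase cascade genes, 3 had an end summit (11.1%) and 6 a body summit (22.2%), and 12 had a summit within 20 kb (44.4%). Those with the highest mean percentiles at an end were Sos1, which activates Ras (28.1 and 28.1), and Mapk14, the gene of p38 alpha (5.1 and 7.12). Mapk14 shares its summit with Slc26a8, an end of which was 122 bp away.

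Of 24 phosphatase genes that the naming rule leaves out, 4 had a shared end summit (16.7%) and 6 a body summit (25.0%). Within 20 kb, 12 had a shared summit. The shares of all coding genes were 8.94%, 12.9% and 34.3%. The body share was nearer to the 20.4% of coding genes of 30 to 100 kb. The strongest end summits were those of Cdc25a, which activates cyclin-dependent kinases (22.2 and 49.6), of Ptp4a1, a phosphatase anchored to membranes (17.6 and 31.0), and of Ptpmt1, a phosphatase of mitochondria (14.6 and 17.5), each outside the gene within 443 bp of its start.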

How the data were processed

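Per the submitters' processing notes, the authors used MACS2 2.2.1, Bowtie2 2.2.9 and Picard 2.1.1 with mm10. Settings, control and threshold: not given in the sources used here. Scores in the deposited lists are −log10 values; whether of p or q is not stated. Read depth is unknown.

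Genes came from the RefSeq GRCm38.p6 gene table, which has no strand; strands and starts came from the RefSeq promoter table, cut to the 250 bases before each start. Counts were made with Python 3.11.15, numpy 2.4.6 and pandas 2.3.3, and tested on simulated data. The genes and lists were chosen with earlier results of these data known, so no set test was made, and counts of genes were set against the share over all coding genes on chromosomes 1 to 19. Dusp29 and Ptprv of the other tissue list were not matched.

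Named in every case were Ptprc, Ptpn2, Ptpn6, Ptpn11, Ptpn22, Dusp1, Dusp2, Dusp4, Dusp5, Dusp6 and Dusp10, then genes with a shared end summit, the 5 with most shared summits (ties by mean score percentile), the 5 with most replicate 2 summits and no shared ones, and up to 3 genes per pathway list by end summit; others were chosen after their values were seen. A gene of the MAP kinase list is not reported here by name.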

Additional observations from a re-analysis of the deposited data

How the results depend on the processing

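No paired analysis was possible because the 2 samples with summit lists belong to 1 group. With replicate 2 reduced to the 8862 highest scores, 3 of the phosphatase genes had a shared end summit, 9 a shared body summit and 16 a shared summit within 20 kb, of which 3 were Ptpr and 5 Dusp genes, and 7 T cell role genes and 1 other tissue gene had a shared summit at an end or in the body, against 4.02%, 6.37%, 18.7% and 9.26% of all coding genes under these 4 definitions. With scores at or above the median of each list, 3 of 18 Ptpr genes had a shared summit within 20 kb. The share of all coding genes was then 23.0%. At this setting, 1 of 19 other tissue genes had a shared summit at an end or in the body, against 11.6%. With gene ends of 2500 bp, 8 genes had a shared end summit, against 13.2% of all coding genes. Without 1 replicate or the other, 7 to 12 genes had an end summit, against 9.84% to 23.2% of all coding genes. In bodies the counts were 17 to 42, against 13.8% to 56.4%. Within 20 kb they were 26 to 55, with 10 to 16 Ptpn, 6 to 18 Ptpr and 10 to 21 Dusp genes, against 35.9% to 84.3%. At an end or in the body they were 15 to 21 T cell role genes and 3 to 14 other tissue genes, against 19.9% to 59.5%. The shares of all coding genes thus rose as well. Of 71 alternative values of these counts, 53 lay within 1.5 times the reported count. Of the alternative values of the counts within 20 kb of single named genes, 156 lay within that range and 42 did not. Ptprd, Ptprg, Ptprm, Ptprr and Ptprt were named for having no shared summit, and had 0 at every setting except without replicate 1. Their unchanged values are among the 156 and are no sign of stability. With replicate 2 reduced, Dusp1, Dusp4, Dusp6, Dusp23 and Ptpn22 had 0 shared summits within 20 kb, and Ptpn9, Ptpn18 and Ptpre had 1 each. With scores at or above the median, Dusp2 and Dusp4 had 0. With a reach of 10 kb, Dusp1 and Dusp2 had 0, and with a reach of 50 kb Ptpn11 had 3 and Dusp10 had 1. The cause of the changes was not tested, and read depth, which is unknown, limits what the shorter list could show.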
